A study of Homo sapiens with 12 samples.

Results

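Of the 12 array samples of the series, 6 form the comparison described here: 3 samples of L428 cells treated with 25 nM ixazomib for 24 h and 3 samples of L428 cells listed as controls. The samples were chosen by their titles, and every gene of the deposited non-normalized signal table whose probe passed a detection filter was tested, which gave 14953 genes. L428 is a Hodgkin lymphoma cell line of B-cell origin. The series holds 2 further groups of the same line, cells treated with 71.25 nM ixazomib for 24 h and ixazomib-resistant cells, with 3 samples each. No drug, vehicle or time is named for the controls beyond the word control. All samples are of 1 cell line, and the submitters' design text speaks of biological triplicates after describing the 25 nM treatment. If the samples were not separate cultures, the spread that the p-values rest on may be only technical.

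Ixazomib is an oral drug that blocks the proteasome, the protease complex that breaks down proteins tagged with ubiquitin. Cells that lose proteasome activity are known to make more proteasome subunits, more chaperones and more ATF4 targets, the genes of the amino acid and stress response. They are also known to send more protein to the lysosome through autophagy, in which a membrane vesicle encloses cargo and delivers it for digestion. Hodgkin cells are known for constant NF-kB and JAK/STAT signalling, for secreted chemokines and cytokines, and for a B-cell programme that has largely been lost. The proteasome, heat shock and ATF4 lists hold 138 measured genes, of which 83 passed the test at 25 nM and 21 rose at least 2-fold. They are set aside below, and what follows is about the other 14815 genes.

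The signals are given as log2 values after background correction and quantile normalization, so that a difference of 1 is a 2-fold change. A gene is called when limma's moderated test gives a Benjamini-Hochberg adjusted p under 0.05, and "rose" and "fell" are used only of such genes. The mean raw signal was 383.2, 384 and 316.4 in the 25 nM samples and 400.5, 387.7 and 343.5 in the controls, and 17470 to 17837 probes were detected at 25 nM against 17100 to 18068 in the controls. Across genes, pairs of samples of the same group correlated with r of 0.9898 to 0.9939, and pairs of different groups with r of 0.9768 to 0.9804. The arrays stand in the table in the order of the groups, so array order and treatment cannot be told apart. In RNA from whole cultures, fewer cells of a type and less RNA per cell cannot be told apart.

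At 25 nM, 4035 of the 14953 genes changed, 27% of those tested. Rises and falls were about equally frequent, with 1992 rises (13.3%) and 2043 falls (13.7%), and the median difference of all genes was 0.00. Most changes were small, since 2286 of the called genes (56.7%) differed by less than 1.5-fold. Changes of at least 2-fold numbered 386, with 244 rises and 142 falls, and changes of at least 4-fold numbered 18 rises and 5 falls. The 3 treated samples lay outside the range of the 3 controls for 6279 genes (42%), above it for 3072 and below it for 3207. Outside the proteasome, heat shock and ATF4 lists, 1914 genes rose and 2038 fell, of which 223 and 142 changed at least 2-fold. Rises of at least 2-fold started from a median control level of 6.9 on the log2 scale, and falls of at least 2-fold from 7.61, against 6.64 for all genes. Among the called genes, 121 rises were of genes not detected in any control sample and 94 falls were of genes not detected in any 25 nM sample. The share of rises among called genes, 49.4% here, was 62.6% when arrays were scaled to housekeeping genes, which moved the median of all genes by 0.07, and the count of 2-fold changes was 112 without background correction.

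**Figure D1:**
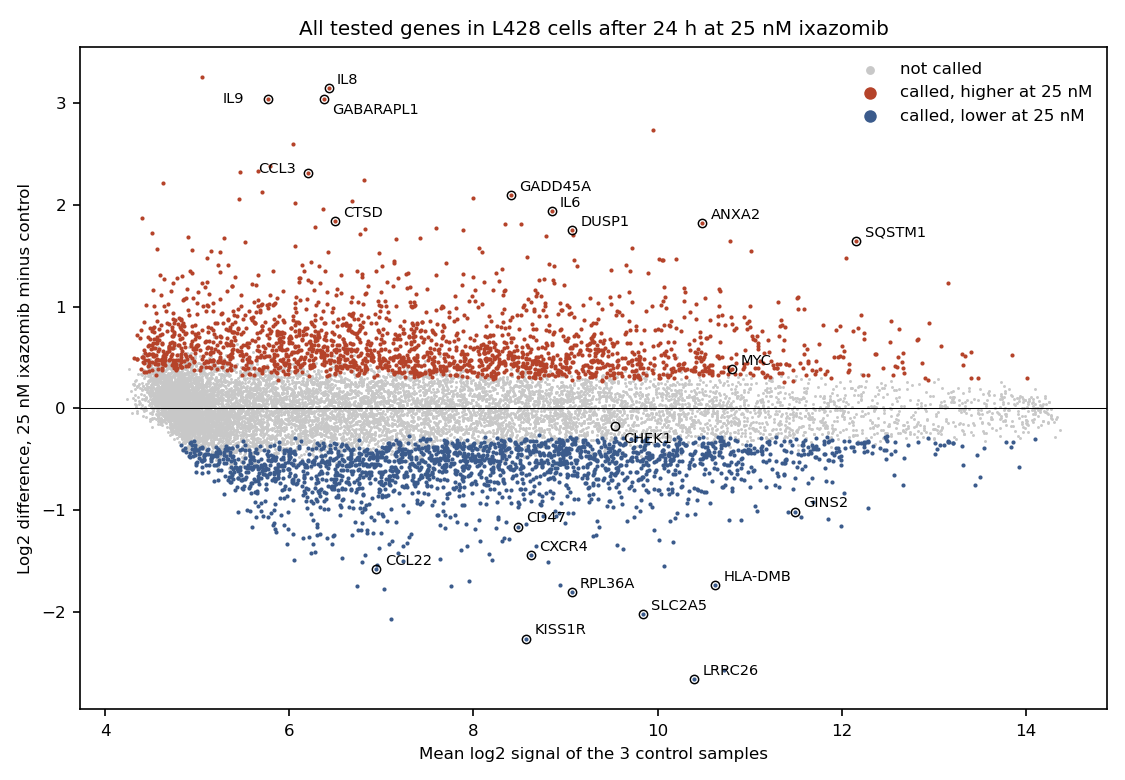
Log2 difference, 25 nM ixazomib minus control (y axis), against the mean log2 signal of the controls (x axis) for every gene tested, with called rises and falls coloured and the labelled genes named in the text. The 1992 rises and 2043 falls are spread over a wide range of signals, and IL8 and LRRC26 are the largest named rise and fall outside the proteasome, heat shock and ATF4 lists.

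The 20 largest rises and falls were taken only from called genes whose groups do not overlap, so their separation follows from that choice. Outside the proteasome, heat shock and ATF4 lists, the largest rises were those of IL8, IL9 and GABARAPL1. IL8, the neutrophil chemokine now named CXCL8, had log2 signals of 9.61, 9.66 and 9.45 in the 25 nM samples, against 6.43, 6.41 and 6.44 in the controls. All treated samples stood far above all controls, and the rise was 8.84-fold (log2 difference 3.14 ± 0.10 SE, n = 3 per group, limma adjusted p = 7.69e-10). A second probe of IL8 differed by 1.75. IL9, a growth factor of T cells and mast cells, had 8.93, 8.85 and 8.64 at 25 nM, against 5.66, 5.67 and 5.98 in the controls, an 8.21-fold rise with a wide gap between the groups. GABARAPL1, an ATG8 protein that coats autophagosome membranes, had 9.30, 9.44 and 9.51 at 25 nM, against 6.54, 6.52 and 6.07 in the controls. Its difference of 3.04 ± 0.13 SE (adjusted p = 8.09e-09) was of the same size as that of IL9. Without background correction the differences were 2.32 for IL8, 1.95 for IL9 and 2.20 for GABARAPL1, and the fold was over 1.5 times smaller for 14 of the 20 largest rises and 12 of the 20 largest falls, all of which kept their direction and call.

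CCL3, CCL3L1 and CCL3L3, chemokine genes of nearly identical sequence whose probes may each read the others, rose by 2.31, 2.13 and 2.60. CCL3 had 8.49, 8.58 and 8.47 at 25 nM, against 6.28, 6.25 and 6.08 in the controls, with no overlap. SERPINB2, an inhibitor of plasminogen activators, rose by 2.38, with 8.21, 8.21 and 8.08 at 25 nM against 5.79, 5.83 and 5.75 in the controls. IL6, the acute-phase cytokine, had 10.87, 10.78 and 10.71 at 25 nM, against 8.96, 8.97 and 8.62 in the controls, a 3.84-fold rise. GADD45A, a growth arrest gene induced by DNA damage and stress, rose by 2.09, with 10.56, 10.48 and 10.45 at 25 nM against 8.57, 8.28 and 8.36 in the controls. OKL38, now OSGIN1, is a growth inhibitor induced by oxidative stress, and it rose by 2.25. The array also lists the name OSGIN1 on its own probe, which differed by 1.01.

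The other members of the 20 largest rises had varied roles and differences between 1.81 and 2.33. CTSD, the lysosomal protease cathepsin D, had 8.57, 8.22 and 8.22 at 25 nM, against 6.53, 6.58 and 6.38 in the controls. ULBP2, a ligand of the activating NKG2D receptor of natural killer cells, rose by 2.06, and FERMT2, the integrin activator kindlin-2, rose by 2.04. The membrane-shaping gene BIN1 rose by 2.32, the RNA-binding gene RBM11 by 2.33, ALKBH6 of the AlkB dioxygenase family by 2.07, and the membrane-binding annexin gene ANXA2 by 1.82. ZFAND2A, a partner of the proteasome induced by arsenite, and CYB5R1, a reductase of cytochrome b5, both rose by 1.81. TPSG1, a tryptase gene, was not detected in any control. On the background-corrected scale it was at least 2.61-fold higher at 25 nM, with a fitted difference of 1.87. Without background correction TPSG1 differed by 0.73 and BIN1 by 1.25. Standard errors among the 20 largest rises and 20 largest falls ran from 0.10 to 0.20, and the largest adjusted p among those rises was 2.57e-06.

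The promoters of the largest rises were searched for motifs. Whether a motif there is tied to the AP-1 genes described below was not tested. RefSeq promoters (GRCh38.p14, 250 bases before to 50 after a gene's start) were at hand for 17 of the 20 largest rises and 15 of the 20 largest falls, and 11 motifs were searched on both strands. The AP-1 motif TGANTCA stood in 6 of the 17 rises (35.3%), namely those of IL8, IL9, SERPINB2, OKL38, ULBP2 and ANXA2. It stood in 1 of the 15 falls (6.67%), in 4.64% of the 9132 tested genes with a promoter and in 7.76% of all 27305 promoters of the same length. The cyclic AMP response motif TGACGTCA stood in 1 of the 17 rises (5.88%), that of GABARAPL1, and in 3.41% of the tested genes. In 4 of the AP-1 promoters and that of GABARAPL1 the motif is in capitals below, each as 1 match, written 5′ to 3′ on the strand of the gene.
CXCL8, chr4:73740319-73740618 on the plus strand, match starting 137 bases before the gene's start: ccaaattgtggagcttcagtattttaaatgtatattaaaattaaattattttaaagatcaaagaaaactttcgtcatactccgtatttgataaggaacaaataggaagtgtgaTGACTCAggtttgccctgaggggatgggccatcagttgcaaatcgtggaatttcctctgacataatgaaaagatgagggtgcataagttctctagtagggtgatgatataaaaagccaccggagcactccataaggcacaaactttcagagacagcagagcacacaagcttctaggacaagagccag
OSGIN1, chr16:83952990-83953289 on the plus strand, match starting 97 bases before the start: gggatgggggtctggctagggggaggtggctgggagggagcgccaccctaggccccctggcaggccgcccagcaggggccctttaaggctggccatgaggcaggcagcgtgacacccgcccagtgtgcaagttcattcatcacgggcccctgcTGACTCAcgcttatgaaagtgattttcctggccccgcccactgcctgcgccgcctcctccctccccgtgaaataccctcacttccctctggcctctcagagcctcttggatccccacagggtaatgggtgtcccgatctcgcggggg
ULBP2, chr6:149941764-149942063 on the plus strand, match starting 2 bases before the start: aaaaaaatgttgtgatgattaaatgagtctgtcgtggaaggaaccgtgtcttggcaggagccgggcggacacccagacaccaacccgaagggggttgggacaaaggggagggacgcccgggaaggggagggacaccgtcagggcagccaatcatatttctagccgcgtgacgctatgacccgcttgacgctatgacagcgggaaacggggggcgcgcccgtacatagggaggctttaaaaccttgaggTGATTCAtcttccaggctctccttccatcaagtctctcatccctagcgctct
ANXA2, chr15:60397937-60398236 on the minus strand, match starting 127 bases before the start: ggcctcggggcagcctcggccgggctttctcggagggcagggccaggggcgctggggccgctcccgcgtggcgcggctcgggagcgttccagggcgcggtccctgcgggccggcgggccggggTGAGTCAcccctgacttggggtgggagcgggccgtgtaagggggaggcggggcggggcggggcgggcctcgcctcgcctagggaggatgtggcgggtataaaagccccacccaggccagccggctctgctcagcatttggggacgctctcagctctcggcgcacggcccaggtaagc
GABARAPL1, chr12:10212627-10212926 on the plus strand, match to the cyclic AMP response motif starting 30 bases before the start: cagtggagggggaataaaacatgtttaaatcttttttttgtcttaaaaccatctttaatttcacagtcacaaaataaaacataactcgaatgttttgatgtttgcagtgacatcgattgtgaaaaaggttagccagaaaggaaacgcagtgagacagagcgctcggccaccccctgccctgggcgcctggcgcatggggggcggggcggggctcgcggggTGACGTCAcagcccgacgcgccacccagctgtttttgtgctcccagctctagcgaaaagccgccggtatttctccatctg
A match is a description of letters, and binding was not measured. An AP-1 match followed by GC can also be a match to the antioxidant response core TGACNNNGC, and no other searched motif overlapped the capitals printed here. On the other strand the OSGIN1 match reads TGAGTCA and is followed by GC, which differs from that core in 1 base. The antioxidant response core stood in 3 of the 17 rises (17.6%), 15.4% of tested genes and 13.6% of all promoters. No promoter of these rises held the NF-kB motif GGGANTTCC (1.86% of all promoters), the heat shock core GAANNTTC (6.87%) or the E-box TCACGTGA of lysosomal genes (1.04%), of which the plain E-box CACGTG is a part. Sites that differ from the searched letters were not counted, so a missing match does not show that a promoter lacks a site. The printed CXCL8 promoter holds ggaatttcc, which the NF-kB motif as searched does not match. The plain E-box stood in 5.88% of the rises, 10.3% of tested genes and 7.43% of all promoters, and among tested genes the shares of the NF-kB, heat shock and lysosomal motifs were 2.32%, 4.85% and 2.05%. The ATF4 composite core TGATGNAA stood in 5.88% of the rises, 1.77% of tested genes and 3.67% of all promoters, and the Y box CTGATTGG in 5.88%, 5.65% and 4.16%. The endoplasmic reticulum stress core CCACG stood in 47.1% of the rises, 49.5% of tested genes and 37.9% of all promoters, and the metal response core TGCNCNC in 58.8%, 63.3% and 55.2%.

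Falls were led in size by LRRC26, KISS1R, SLC26A9 and SLC2A5. LRRC26, an accessory subunit that opens the BK potassium channel, had 7.71, 7.64 and 7.87 at 25 nM, against 10.33, 10.26 and 10.59 in the controls. Its log2 difference was -2.66 ± 0.12 SE (adjusted p = 1.13e-08), the largest fall of all named genes. KISS1R, the kisspeptin receptor, had 6.66, 6.25 and 6.02 at 25 nM, against 8.55, 8.43 and 8.73 in the controls, a difference of -2.26. SLC2A5, the fructose transporter GLUT5, had 7.97, 7.75 and 7.73 at 25 nM, against 9.87, 9.75 and 9.90 in the controls. The chloride transporter gene SLC26A9 fell by 2.07 on the log2 scale and SLC2A5 by 2.02, both with no overlap between groups. SLC26A9 differed by -0.94 without background correction, and WWC1, of the Hippo pathway, by -0.73.

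HLA-DMB, a chain of the HLA-DM complex that loads peptides on MHC class II, had 8.72, 8.96 and 8.97 at 25 nM, against 10.56, 10.68 and 10.63 in the controls (difference -1.74, adjusted p = 1.46e-07). HSD3B7, an enzyme of bile acid synthesis, WWC1, also called KIBRA, and TMEM158, a membrane protein, also differed by -1.74. The ribosomal protein gene RPL36A fell by 1.80 and UMODL1, a relative of uromodulin, by 1.78 on the log2 scale. PODXL, the cell surface sialomucin podocalyxin, was not detected in any 25 nM sample. On the background-corrected scale it was at least 2.23-fold lower there, with a fitted difference of -1.49, or -0.53 without that correction. The proton-gated channel gene ACCN2, now ASIC1, fell by 1.5 and MMACHC, of vitamin B12 metabolism, by 1.47 on the log2 scale, the smallest of these 20 falls. The tetraspanin gene TSPAN7 had 8.39, 8.69 and 8.48 at 25 nM, against 10.14, 10.08 and 9.99 in the controls.

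**Figure D2:**
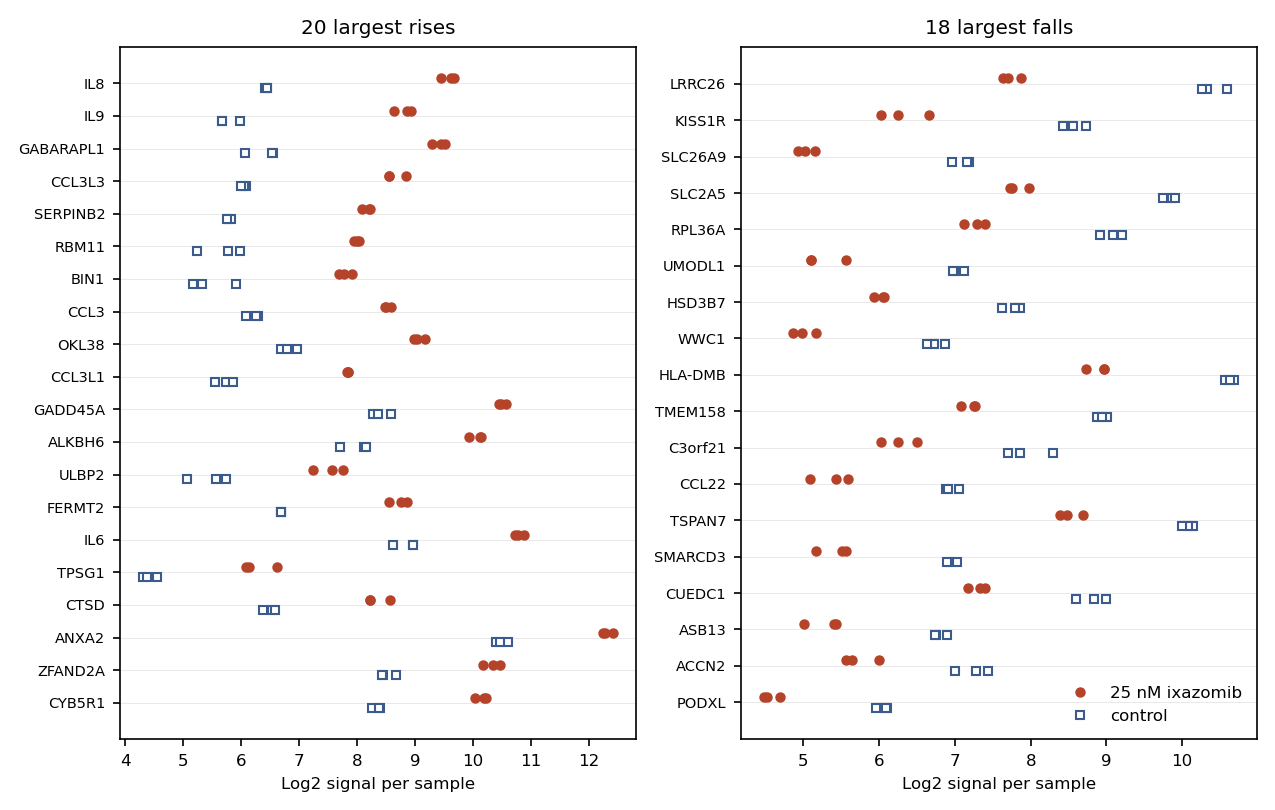
Log2 signals of the 20 largest rises and 18 largest falls (rows) in each of the 3 samples treated with 25 nM ixazomib and each of the 3 controls (points). The rows were taken only from called genes whose groups do not overlap, so separate points in every row follow from that choice. The spread within a group is small beside the gap.

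Lists of genes by function are described by how many measured members rose and fell, to be read against the 13.3% of all genes that rose and the 13.7% that fell. Members are counted as names on the array, of which a few stand for the same gene. Some lists share members, so the counts of different lists are not independent. The lists with the most rises for their size were the NF-kB targets, the unfolded protein response and the AP-1 and immediate early factors. Falls without a rise were found for MHC class II (13 of 19) and cytosolic ribosomal proteins (16 of 75). MYC targets had 23 falls and 1 rise among 67. The plot of list shares sets these beside the other lists.

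**Figure D3:**
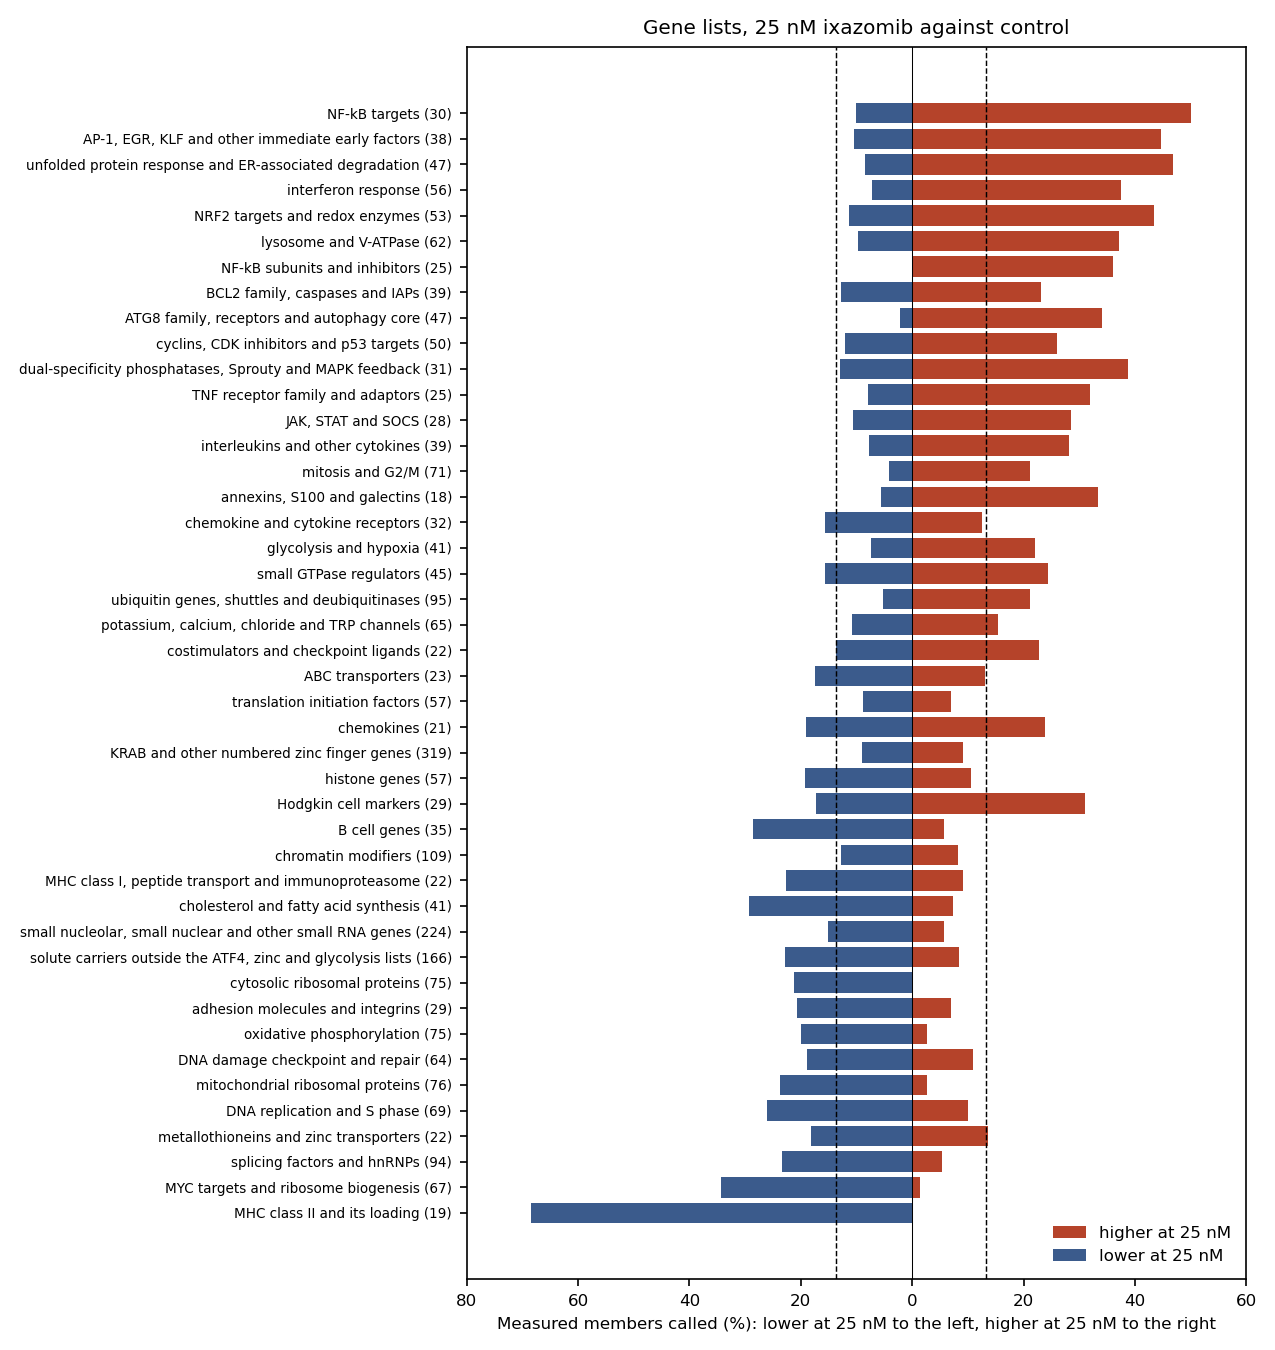
Share of measured members that rose and that fell at 25 nM ixazomib against control (x axis, percent) for the 44 lists with at least 10 measured genes (y axis), ordered by their median difference. Dashed lines mark the shares of all genes, 13.3% for rises and 13.7% for falls.

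Among secreted signals, cytokines had more rises than falls, and chemokines had nearly as many falls as rises. Of 39 interleukins and other cytokines 11 rose and 3 fell (median difference 0.11), and of 21 chemokines 5 rose and 4 fell (median 0.01, and -0.04 under another setting). TNF, a cytokine that activates NF-kB, had 11.73, 11.64 and 11.64 at 25 nM, against 10.24, 10.18 and 10.18 in the controls, a 2.77-fold rise. CSF2, the granulocyte and macrophage growth factor, had 12.44, 12.44 and 12.39 at 25 nM, against 10.71, 10.64 and 11 in the controls, a 3.12-fold rise. Both cytokines were separate between the groups. TNFSF9, the ligand of 4-1BB, rose by 1.40, and IL5, a growth factor of eosinophils, fell by 0.71 on the log2 scale, a call lost in 2 of 18 alternatives. IL5 differed by -0.31 without background correction.

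The ligands of CCR4, which draw T cells to Hodgkin cells, were lower at 25 nM. CCL22 had 5.59, 5.43 and 5.08 at 25 nM, against 7.05, 6.88 and 6.91 in the controls, and fell by 1.58 on the log2 scale. CCL17 fell by 0.33 on the log2 scale, CCL2 by 0.66 and CXCL16 by 0.59. CCL5 rose by 0.43. The call of CCL17 was lost in 4 of 18 alternatives, each leaving out 1 array (control array 1 or 25 nM array 4, 5 or 6), and that of CCL5 with median scaling. CCL17 and CCL5 had signals above 13 on each of the 6 arrays.

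Receptors changed in both directions. Of 32 chemokine and cytokine receptor genes 4 rose and 5 fell (median 0.10). CXCR4, the receptor of CXCL12, had 7.12, 7.21 and 7.24 at 25 nM, against 8.55, 8.85 and 8.48 in the controls, and its second probe differed by -1.62. IL5RA, the IL-5 receptor chain, fell by 0.84 on the log2 scale. IL2RA rose by 1.53 on its brighter probe, while its second probe differed by 0.06. IL10RA rose by 1.16 (0.48 without background correction) and IL15RA by 1.08 (0.09 to 0.51 on its other probes). IL15, the ligand of IL15RA, rose by 1.06. Of 25 genes of the TNF receptor family and its adaptors 8 rose and 2 fell (median 0.14), with TNFRSF12A, the receptor of TWEAK, at 1.45, TNFRSF9, the receptor 4-1BB, at 1.03 and TNFRSF21, death receptor 6, at -1.0.

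NF-kB genes had more rises than falls. Of 25 NF-kB subunits and inhibitors 9 rose and none fell (median 0.20), and of 30 NF-kB targets 15 rose and 3 fell (median 0.36), with IL8, CCL3, IL6 and CSF2 as the largest rises. Both lists hold NFKB2, NFKBIA, RELB and TNFAIP3, and these largest rises were also counted among the chemokines and cytokines. The subunit gene RELA rose by 0.72, the inhibitor gene NFKBIA by 0.40, the deubiquitinase gene TNFAIP3 by 0.65 and NFKBIZ, an atypical nuclear inhibitor protein, by 0.79. The call of NFKBIA was lost with median scaling. NFKB2 rose by 0.49, while NFKB1 differed by -0.04 and RELB by 0.13, neither of which passed the test. The number of subunits and inhibitors that rose was 4 to 11 over the alternatives, and the number that fell was 0 to 2.

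Immediate early factors, which act within minutes to hours of a stimulus, had more rises than falls as well. Of 38 AP-1, EGR, KLF and other immediate early genes 17 rose and 4 fell (median 0.34). FOSL1, an AP-1 subunit, had 6.62, 6.40 and 6.76 at 25 nM, against 5.33, 5.22 and 5.21 in the controls. KLF2 rose by 1.41, the mRNA decay factor ZFP36 by 1.43 and IER5 by 1.32. The AP-1 subunits JUN, JUNB and FOS rose by 0.83, 0.82 and 1.02, and JUND differed by 0.17, which did not pass the test. Without background correction JUN, JUNB and FOS differed by 0.80, 0.72 and 0.35, and FOSL1 by 0.57. ID3, an inhibitor of E proteins, was not detected at 25 nM. On the background-corrected scale it was at least 1.93-fold lower there, and without that correction it differed by -0.41.

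Dual-specificity phosphatases, Sprouty, RGS and other feedback genes of MAP kinase and G-protein signals had 12 rises and 4 falls among 31 (median 0.14). DUSP1, a phosphatase that switches off p38 and JNK, had 10.88, 10.84 and 10.73 at 25 nM, against 9.11, 9.08 and 9.03 in the controls, a 3.36-fold rise (adjusted p = 6.71e-08). RGS1, which shortens G-protein signals, rose by 1.47 and DUSP5, a phosphatase of ERK, by 1.28, while SPRY1, an inhibitor of receptor kinase signals, fell by 0.87 on the log2 scale. Regulators of small GTPases rose in 11 of 45 cases and fell in 7, with RRAD, a small GTPase, at 1.54.

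JAK/STAT genes split by member. Of 28 JAK, STAT and SOCS genes 8 rose and 3 fell (median 0.11). STAT4 rose by 1.05, whereas STAT3 fell, with a difference of -0.60 for its brightest probe and of -0.66 for the others. Of the feedback inhibitors, SOCS3 rose by 0.60 and SOCS2 fell by 0.83 on the log2 scale. The interferon list had 21 rises and 4 falls among 56 genes (median 0.27). IRF1 had 9.79, 9.76 and 9.87 at 25 nM, against 8.69, 8.57 and 9.07 in the controls. IRF9, the DNA-binding subunit of the interferon-stimulated STAT complex, rose by 1.03 and the guanylate-binding gene GBP2 by 0.92, while the membrane protein gene IFITM2 fell by 1.01 on the log2 scale.

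**Figure D4:**
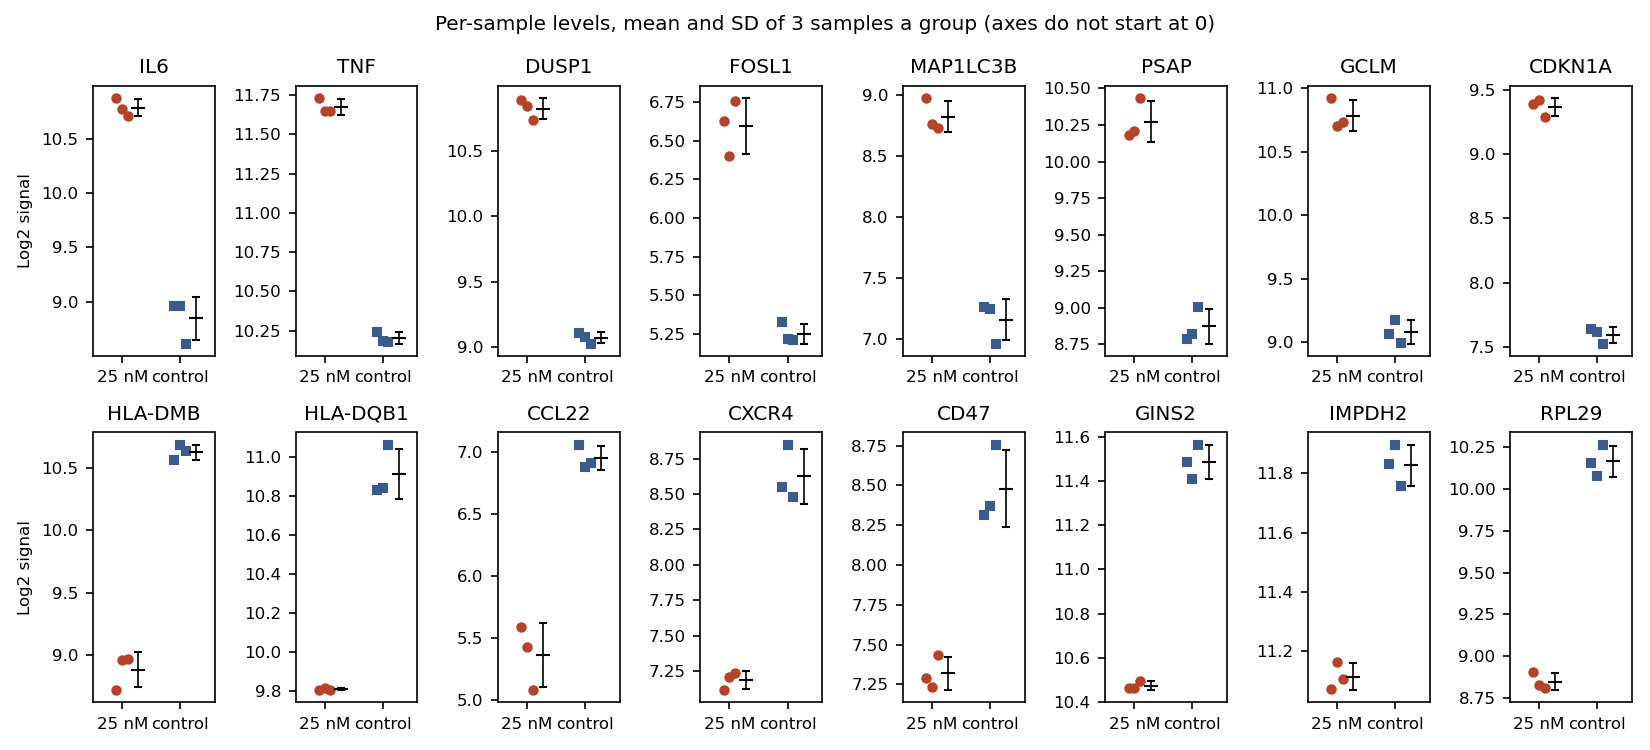
Log2 signals (y axis) of 16 named genes in each sample treated with 25 nM ixazomib and each control (points), with the mean and SD of each group of 3. IL6, TNF, DUSP1, FOSL1, MAP1LC3B, PSAP, GCLM and CDKN1A are higher at 25 nM, and HLA-DMB, HLA-DQB1, CCL22, CXCR4, CD47, GINS2, IMPDH2 and RPL29 are lower.

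Autophagy genes rose with few falls. Of 47 ATG8 proteins, cargo receptors and core autophagy genes 16 rose and 1 fell (median 0.18). MAP1LC3B, the ATG8 protein LC3B, had 8.97, 8.77 and 8.73 at 25 nM, against 7.26, 7.25 and 6.96 in the controls. SQSTM1, the cargo receptor p62, had 13.69, 13.89 and 13.84 at 25 nM, against 12.06, 12.17 and 12.24 in the controls, and ULK1, the kinase that starts autophagy, rose by 1.57. These 3 genes and GABARAPL1 rose 2.98-fold or more, while their relative GABARAP differed by 0.13, which did not pass the test. UVRAG, a partner of the Beclin complex, was the gene that fell, by 0.40 on the log2 scale, a call lost in 6 of 18 alternatives.

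Of 62 lysosomal genes, 23 rose and 6 fell (median 0.23). CD68, a lysosomal membrane glycoprotein, had 11.18, 11.38 and 11.35 at 25 nM, against 9.77, 9.74 and 9.67 in the controls. The hydrolase genes GLA and SGSH rose by 1.46 and 1.32, PSAP, the precursor of sphingolipid activators, by 1.40, and the cholesterol transporter gene NPC1 by 1.33. Subunits of the proton pump rose less, with ATP6V1B2 at 0.79 and ATP6V0A1 at 0.77, and so did the calcium channel gene MCOLN1, at 0.79. Cathepsins differed among themselves. CTSD rose by 1.84, whereas CTSH had 8.23, 8.22 and 8.28 at 25 nM, against 9.69, 9.66 and 9.51 in the controls, a difference of -1.38. CTSB differed by -0.54 and the membrane protein gene LAMP1 by 0.24, and neither passed the test, though CTSB did in 6 and LAMP1 in 3 of 18 alternatives.

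Ubiquitin genes, shuttles and deubiquitinases rose in 20 of 95 cases and fell in 5 (median 0.08). The zinc finger gene ZFAND5, which binds ubiquitin and the proteasome, had 10.49, 10.56 and 10.53 at 25 nM, against 9.07, 9.20 and 9.11 in the controls. It rose by 1.40, the conjugating enzyme gene UBE2H by 1.14, and NPLOC4 and VCP, of the complex that extracts ubiquitinated proteins from membranes, by 1.21 and 1.05. Of 47 genes of the unfolded protein response and endoplasmic reticulum degradation, 22 rose and 4 fell (median 0.32). WFS1, a membrane protein of the endoplasmic reticulum, rose by 1.67 and the co-chaperone gene DNAJB9 by 0.99. HSPA5, the main chaperone of the endoplasmic reticulum, rose by 0.47, and XBP1, a transcription factor of the unfolded protein response, differed by 0.17, which did not pass the test.

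NRF2 targets and redox enzymes rose in 23 of 53 cases and fell in 6 (median 0.23). GCLM, a subunit of the enzyme that begins glutathione synthesis, had 10.92, 10.70 and 10.73 at 25 nM, against 9.07, 9.18 and 9.0 in the controls. HMOX1, which breaks down haem, rose by 1.59 and the reductase gene AKR1C3 by 1.31. NQO1, another classic NRF2 target, differed by 0.07 and did not pass the test, and TXNIP, the inhibitor of thioredoxin, fell by 0.65 on the log2 scale. Metallothioneins and zinc transporters rose in 3 of 22 cases and fell in 4 (median -0.14). SLC39A11, a zinc importer, fell by 1.13 and MT1X by 0.37 on the log2 scale, the call of MT1X being lost in 9 of 18 alternatives, and MT2A differed by 0.10, which did not pass the test.

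MYC and CHEK1, the genes of the study's title, differed little. MYC had 11.27, 11.03 and 11.30 at 25 nM, against 10.81, 10.98 and 10.65 in the controls, so that the lowest treated sample lay just above the highest control. Its difference was 0.39 ± 0.11 SE (adjusted p = 0.0226), a call lost in 6 of 18 alternatives, with adjusted p up to 0.204, and its second probe differed by 0.13. CHEK1, a kinase of the DNA damage checkpoint, had 9.28, 9.52 and 9.28 at 25 nM, against 9.46, 9.61 and 9.53 in the controls. The groups overlapped and its difference of -0.18 ± 0.11 SE did not pass the test (adjusted p = 0.268), nor did it in any of the 18 alternatives.

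Of 67 MYC targets and ribosome biogenesis genes, 1 rose and 23 fell (median -0.25). IMPDH2, an enzyme of guanine nucleotide synthesis, had 11.07, 11.16 and 11.10 at 25 nM, against 11.83, 11.89 and 11.76 in the controls. AHCY, which clears S-adenosylhomocysteine, fell by 1.03 on the log2 scale, the ribosome assembly factor gene RRS1 by 0.82 and RPIA, of the pentose phosphate pathway, by 0.77. RRP12, a factor in ribosomal RNA processing, was the gene that rose, by 0.55. Of 75 cytosolic ribosomal protein genes 16 fell and none rose (median -0.09), and RPL29 had 8.91, 8.83 and 8.81 at 25 nM, against 10.15, 10.07 and 10.26 in the controls. RPL34 fell, with a difference of -0.80 for its brighter probe and -0.05 for the other. Ribosomal protein genes have many processed copies, so their probes may read related sequences.

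Splicing factors, mitochondrial ribosomal proteins and oxidative phosphorylation genes had more falls than rises. The splicing factors and hnRNPs had 22 falls and 5 rises among 94 names (median -0.16), which are 85 current genes with 21 falls and 5 rises, with SFRS7, now SRSF7, at -0.96 and HNRNPA1 at -0.91 on its brighter probe and -0.17 on the other. Mitochondrial ribosomal proteins fell in 18 of 76 cases and rose in 2 (median -0.13), with MRPL48 at -0.77. Of 75 oxidative phosphorylation genes 2 rose and 15 fell (median -0.10), with NDUFB10, a subunit of complex I, at -0.83. Of 57 translation initiation factors 4 rose and 5 fell (median 0.06), and of 224 small nucleolar, small nuclear and other small RNA genes 13 rose and 34 fell, shares of falls of 8.77% and 15.2% against 13.7% of all genes. SNORA57, a guide of RNA modification, fell by 1.22 on the log2 scale, whereas SCARNA8 was not detected in the controls. SCARNA8 was at least 2.26-fold higher at 25 nM on the background-corrected scale and differed by 0.46 without that correction.

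Genes of DNA replication had more falls than rises, and genes of mitosis more rises than falls. Of 69 replication and S phase genes 7 rose and 18 fell (median -0.13), and of 71 mitosis and G2/M genes 15 rose and 3 fell (median 0.11). GINS2, of the replicative helicase, had 10.46, 10.46 and 10.50 at 25 nM, against 11.49, 11.41 and 11.57 in the controls. The S phase transcription factor gene E2F2 fell by 0.82, the DNA ligase gene LIG1 by 0.71 and PCNA, the sliding clamp, by 0.64 on the log2 scale, while RRM2, of ribonucleotide reductase, rose by 0.68. TPX2, a spindle assembly factor, had 9.92, 9.82 and 9.79 at 25 nM, against 9.05, 9.03 and 8.66 in the controls, HMMR rose by 0.81 and the phosphatase gene CDC25C by 0.72. The mitotic genes CCNB1 and PLK1 differed by 0.13 and 0.05, which did not pass the test. Of 64 DNA damage checkpoint and repair genes 7 rose and 12 fell, with TP53BP1 at 1.01 and XRCC5, the Ku subunit, at -0.69. Of 57 histone genes 6 rose and 11 fell, with HIST1H3J at -0.93 and HIST1H2BK at 0.91.

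Among 50 cyclins, inhibitors of cyclin-dependent kinases and p53 targets, 13 rose and 6 fell (median 0.15). CDKN1A, the inhibitor p21, had 9.39, 9.42 and 9.29 at 25 nM, against 7.64, 7.61 and 7.53 in the controls, a 3.42-fold rise (adjusted p = 6.71e-08). CDKN2C, the inhibitor p18, was not detected in the controls. On the background-corrected scale it was at least 1.57-fold higher at 25 nM, and without that correction it differed by 0.35. The p53 targets FDXR and DDB2 fell, with differences of -1.24 and -0.79 (-0.52 and -0.32 without background correction). Among 39 BCL2 family members, caspases and IAPs 9 rose and 5 fell (median 0.18). The pore-forming gene BAK1 rose by 0.93, its family relative BCL2L13 by 0.84, the survival gene MCL1 by 0.76 and PMAIP1, the BH3-only protein NOXA, by 0.65. BAK1 differed by 0.36 without background correction. Second probes of MCL1 and PMAIP1 differed by less, 0.26 and 0.14. BCL2 fell, with a difference of -0.69 for its brightest probe, and its other probes differed by -0.19 to 0.55. The call of BCL2 was lost with the mean of its probes. BBC3, the BH3-only protein PUMA, differed by 0.02, which did not pass the test.

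MHC class II genes fell with no rise. Of 19 measured genes of class II and its loading 13 fell (median -0.38). HLA-DQB1, a beta chain of HLA-DQ, had 9.81, 9.82 and 9.81 at 25 nM, against 10.83, 10.84 and 11.06 in the controls, a difference of -1.10 ± 0.12 SE (adjusted p = 2.41e-05). HLA-DQB2, whose sequence is close to it, fell by 0.93, HLA-DPB1 by 0.80, the promoter factor gene RFX5 by 0.75 (-0.24 on its second probe) and CIITA, the master activator of class II genes, by 0.35 on the log2 scale. The call of CIITA was lost in 6 of 18 alternatives. HLA-DRA and the invariant chain gene CD74 differed by -0.30 and -0.24, which did not pass the test, though HLA-DRA did in 7 of 18 alternatives. Class II promoters are known for a Y box, and that of HLA-DQB1 is printed with it in capitals. The motif stands in 5.65% of the promoters of tested genes and 4.16% of all promoters. As searched, it also stood in the promoter of HLA-DQB2, but not in those of HLA-DMB, HLA-DPB1 and CD74.
HLA-DQB1, chr6:32666608-32666907 (RefSeq, GRCh38.p14) on the minus strand, match starting 91 bases before the start: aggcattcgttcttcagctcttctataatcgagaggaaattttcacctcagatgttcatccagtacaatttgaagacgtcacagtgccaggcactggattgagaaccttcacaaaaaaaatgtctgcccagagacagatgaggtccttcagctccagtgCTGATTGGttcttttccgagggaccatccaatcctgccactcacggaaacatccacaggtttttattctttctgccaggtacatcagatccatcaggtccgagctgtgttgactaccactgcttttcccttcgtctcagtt

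Class I genes moved less. Of 22 genes of MHC class I, peptide transport and the immunoproteasome 2 rose and 5 fell (median -0.05). The immunoproteasome genes PSMB8 and PSMB9 fell by 0.54 and 0.42 on the log2 scale, and TAPBPL, an editor of class I peptides, by 0.69. The peptide transporter gene TAP1 rose by 0.40. The call of PSMB9 was lost in 4 of 18 alternatives and that of TAP1 with median scaling. Costimulators and checkpoint ligands rose in 5 of 22 cases and fell in 3. CD47, the signal against phagocytosis, had 7.29, 7.23 and 7.43 at 25 nM, against 8.31, 8.37 and 8.76 in the controls. The receptor gene SLAMF1 rose by 0.75 and PVRL2, now NECTIN2, by 0.80, while CD58, the ligand of CD2, fell by 0.63 on the log2 scale. PVRL2 differed by 0.26 without background correction. CD274, the checkpoint ligand PD-L1, was not detected on any of the 6 arrays. Of 29 adhesion molecules and integrins 2 rose and 6 fell (median -0.10), with ICAM1 at 1.19 and ALCAM at -0.67.

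The cell line's own markers did not move as 1 group. Of 29 Hodgkin cell markers 9 rose and 5 fell (median -0.02, and 0.08 under another setting). Their summed signal was 64640 to 65800 at 25 nM and 64910 to 67600 in the controls. The sum is of linear signals, so bright members such as CCL17 and CCL5 weigh heavily in it. TNFRSF8, the Hodgkin marker CD30, had 9.77, 9.67 and 9.69 at 25 nM, against 9.72, 9.78 and 9.70 in the controls, with overlap and a difference of -0.02. FUT4, the enzyme that makes the CD15 sugar, fell by 1.11 on the log2 scale. Of 35 measured B-cell genes, out of 57 listed, 2 rose and 10 fell (median -0.03, and 0.06 under another setting), with a summed signal of 9992 to 10950 at 25 nM and 10790 to 11500 in the controls. CD24 fell by 1.09, the lymphoid transcription factor gene IKZF1 by 0.93, and PLCG2 and TCF3, of B-cell receptor signalling and B-cell identity, by 0.85 on the log2 scale.

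Markers of other cell types were few. Of 22 T-cell markers 4 were measured, none detected on all 6 arrays and none called, and their sum was 119.2 to 128.5 at 25 nM and 98.85 to 117.3 in the controls. Of 20 myeloid markers 7 were measured, with a sum of 2548 to 2900 at 25 nM and 1105 to 1115 in the controls. CD68, which is also the lysosomal gene described above, was the myeloid marker that rose, and 1 other, AIF1, fell. Of 22 stromal, endothelial and epithelial markers 4 were measured, with a sum of 1205 to 1250 at 25 nM and 861.1 to 902.7 in the controls, and ACTA2, an actin gene, rose by 0.54. The part of these genes in the other results was not tested.

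Genes of lipid synthesis and solute carriers had more falls than rises, and genes of glycolysis more rises than falls. Of 41 cholesterol and fatty acid synthesis genes, 3 rose and 12 fell (median -0.07). SCD, which makes monounsaturated fatty acids, and TM7SF2, a sterol reductase, both fell by 0.90 on the log2 scale. Of 41 glycolysis and hypoxia genes 9 rose and 3 fell, with SLC2A3, the glucose transporter GLUT3, at 1.26 and ALDOA, an aldolase, at 1.04 on its brightest probe and 0.05 to 0.56 on the others. SLC2A14, whose sequence is close to that of SLC2A3, rose by 1.41. Of 166 other solute carriers 14 rose and 38 fell (median -0.07, and 0.01 under another setting), among them the choline transporter gene SLC44A1 at -1.35 (-0.43 on its second probe) and SLC27A5, which activates bile acids and fatty acids, at -1.24.

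Genes for 3 parts of the BK potassium channel fell, a grouping made after the values were seen. Beside LRRC26, its accessory subunit gene KCNMB4 fell by 1.26 and its pore gene KCNMA1 by 0.91 on the log2 scale. Without background correction KCNMB4 differed by -0.47 and KCNMA1 by -0.70. KCNMA1 had 7.69, 7.61 and 7.85 at 25 nM, against 8.56, 8.75 and 8.56 in the controls, and its second probe differed by -0.27. The accessory subunit genes KCNMB2 and KCNMB3 differed by -0.10 and 0.08, which did not pass the test. Over the whole list of 65 channel genes 10 rose and 7 fell, with the ATP-gated channel gene P2RX4 at 1.35. ABC transporters rose in 3 of 23 cases and fell in 4. The drug efflux pump gene ABCB1 rose by 0.95 on its brighter probe and differed by 0.05 on the other, and ABCC4, an exporter of cyclic nucleotides, fell by 0.92 on the log2 scale. Of 18 annexins, S100 proteins and galectins 6 rose and 1 fell, with ANXA2 at 1.82, ANXA5 at 1.02 and ANXA1 at 0.98. Chromatin modifiers rose in 9 of 109 cases and fell in 14, with PHF1, a partner of the Polycomb complex, at 1.67 and SMARCD3, of the BAF complex, at -1.54. Of 319 numbered zinc finger genes 29 rose and 29 fell.

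Most of the response at 25 nM was not called different at the higher dose. The description of 1 of the 3 samples at 71.25 nM names 25 nM, and it was grouped by its title and its treatment label, which both name 71.25 nM. The 71.25 nM samples differed from the 25 nM samples in 876 genes (5.86%), 445 higher (2.98%) and 431 lower (2.88%), and both comparisons use the 25 nM samples, so they are not independent. Of the 4035 genes called at 25 nM, 3514 (87.1%) did not differ between the doses, 237 rose at 25 nM and were higher still at 71.25 nM, and 220 fell and were lower still. A missed call does not show that the doses act alike. Of the 20 largest rises 10 were higher at 71.25 nM than at 25 nM and 1, TPSG1, was lower. Of the 20 largest falls 9 were lower still and none was higher. All 40 were also called against the control at 71.25 nM. The count of 876 was 371 without 25 nM array 6, 448 without array 4, 470 without array 5, and 1774 without background correction.

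Some genes that rose at 25 nM were higher still at 71.25 nM. FOS was 1.35 higher at 71.25 nM than at 25 nM, DUSP1 1.21, NFKBIZ 1.16, DNAJB9 1.14, SOCS3 1.09, TNF 0.74 and JUN 0.71. CCL3 was 1.37 higher. Between the doses, 10 of 38 AP-1 and immediate early genes stood higher at 71.25 nM and 3 stood lower, and of 47 unfolded protein response genes 10 were higher and none lower. Among 39 cytokines 7 were higher and 3 lower, and among 21 chemokines 3 were higher and 5 lower. Of 19 MHC class II genes 6 were lower still, HLA-DQB1 by a difference of -0.81 and HLA-DMB of -0.46. NF-kB targets had 4 genes higher and 8 lower, in which they differ from the AP-1 list by count, a difference that was not tested.

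A smaller set moved back. In all 64 of the 4035 genes called at 25 nM were called in the opposite direction between 71.25 nM and 25 nM. Of these, 55 stood under a name other than a provisional LOC or HS. symbol. At 25 nM, 31 of the 55 had risen and 24 had fallen. At 71.25 nM against control, 9 of the 55 were still called in the direction of 25 nM. In the opposite direction 2 were called, IL4I1 and PDLIM1. Both steps use the 25 nM samples with opposite signs, so error in those samples favours such genes. By the size of the second step the leading genes were RPPH1, IL4I1, PDLIM1, SLC15A3, PMP22 and TUBB4. IL4I1, a secreted enzyme that breaks down phenylalanine, differed by 0.44 at 25 nM against control and by -0.92 at 71.25 nM against 25 nM. SLC15A3, a lysosomal peptide transporter, rose by 0.97 and then differed by -0.75. RPPH1, the RNA of ribonuclease P, differed by -0.68 and then by 1.03, PDLIM1 by -0.47 and 0.83, PMP22 by -0.55 and 0.75, and TUBB4, a name that the reference table does not resolve, by 0.47 and -0.71. The call at 25 nM was lost in 8 of 18 alternatives for each of RPPH1, PDLIM1 and TUBB4 and in 3 for IL4I1, and in none for SLC15A3 and PMP22. Among genes of the lists above, CSF2 rose by 1.64 and then differed by -0.50, JUNB by 0.82 and -0.58, NFKB2 by 0.49 and -0.65, and NFKBIA by 0.40 and -0.40.

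**Figure D5:**
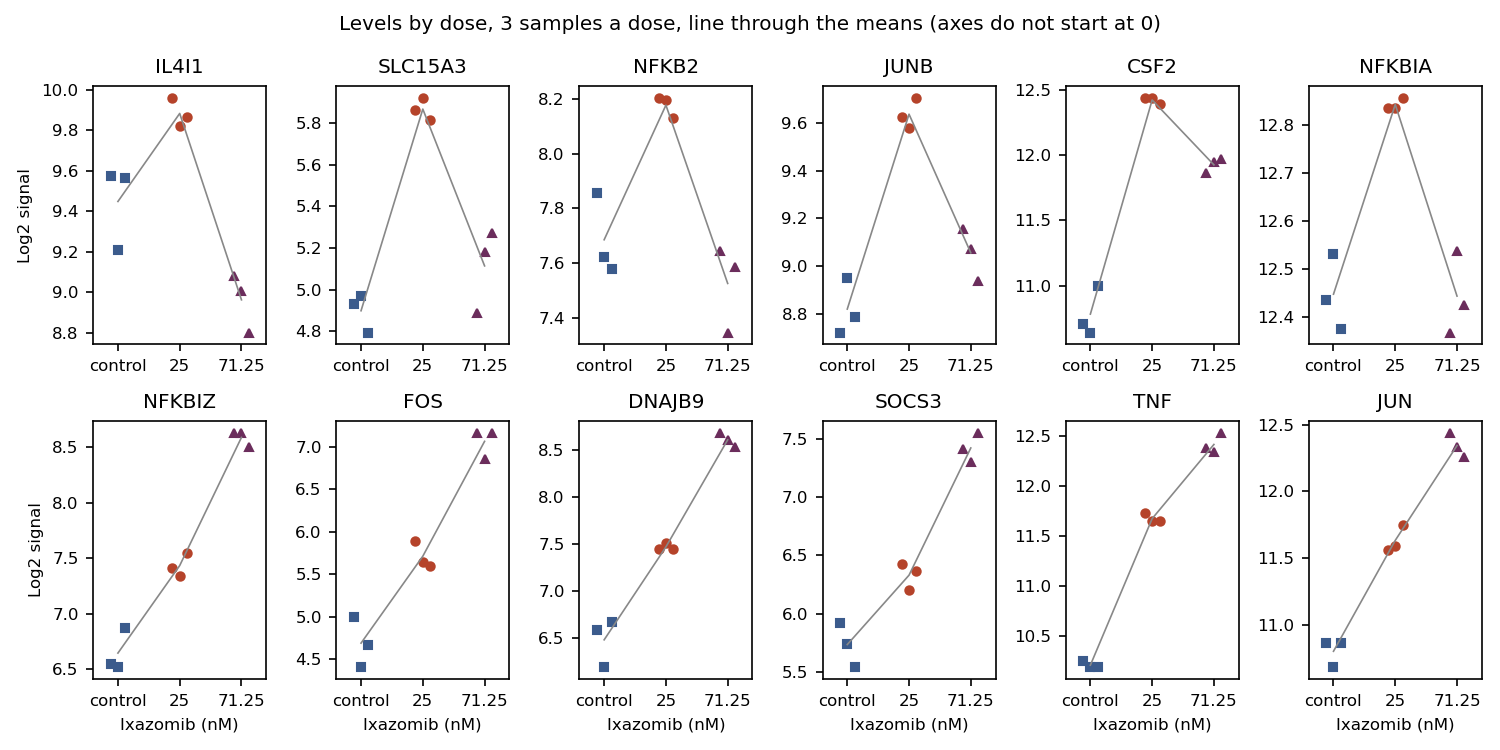
Log2 signals (y axis) of 12 genes in the control samples and the samples treated with 25 and 71.25 nM ixazomib (x axis, in order of dose), with 3 points a dose and a line through the means; these genes were chosen after their values were seen. IL4I1, SLC15A3, NFKB2, JUNB, CSF2 and NFKBIA are highest at 25 nM, while NFKBIZ, FOS, DNAJB9, SOCS3, TNF and JUN are highest at 71.25 nM.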

How the data were processed

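Total RNA of L428 cells was measured on Illumina HT-12 arrays, per the labels. The deposited table held a non-normalized intensity and a detection p-value per probe for 12 arrays, per the file headers. A second deposited table held the authors' processed intensity values, which per the submitters' design text were corrected by housekeeping genes and quantile normalized. The housekeeping genes themselves are not named in the sources used here. The submitters' columns had medians of 104, 104.3 and 104.8 for 25 nM, 104.4, 104.6 and 104 for control, 104.3, 103.9 and 104.3 for 71.25 nM and 104.1, 104.3 and 104.4 for resistant cells. Their scale was linear, not centred by gene, and each correlated by rank at 0.99974 to 0.99999 with a raw column of its own group.

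Background was corrected with normexp (offset 16) on the deposited intensity, followed by quantile normalization and log2, in limma 3.58.1 under R 4.3.3. A probe was kept if its detection p-value was under 0.05 on at least 3 of the 12 arrays, which left 20414 of 47227 probes. The brightest probe stood for each gene, and 408 names shared a current gene with another name. lmFit used all 12 arrays of the 4 groups, followed by eBayes, with Benjamini-Hochberg adjustment of the p-values over 20414 probes. The median standard error was 0.133. Where a gene was not detected in any sample of a group, its fold is a bound against the lowest signal among detected probes. The bound is on the background-corrected scale and carries no error, and the fold can be smaller without that correction. An exact permutation test of 3 against 3 samples cannot go below p = 0.1 and was not used. The number of arrays limits the precision. The fit was tested on simulated data.

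The named genes are MYC and CHEK1, the 20 largest rises and falls whose samples do not overlap (outside the proteasome, heat shock and ATF4 lists), up to 4 called members of each of 50 lists with further members where roles contrast, 6 genes that turned back between doses, and the 10 smallest adjusted p-values. Some genes that this rule names are not reported here. The members and lists were chosen with earlier results of these data known. The alternatives were no background correction, an offset of 50, median, cyclic loess or housekeeping scaling, other detection filters, only the 2 groups, the mean of probes, the authors' values, and leaving out each array. Promoter sequences are from RefSeq, matched by symbol.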

Additional observations from a re-analysis of the deposited data

How the results depend on the processing

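The number of genes called at 25 nM, 4035, ran from 2919 with median scaling to 4684 on the authors' values, and from 3165 to 3523 when 1 array was left out. The 386 changes of at least 2-fold became 112 without background correction, 181 with an offset of 50, and 113 on the authors' values, the same without moderation and with the replicate block, and ran from 364 to 399 when 1 array was left out. The share of rises, 49.4%, was 62.6% with housekeeping scaling and 49.6% to 51.7% when 1 array was left out. The 876 genes called between the doses became 1774 without background correction, 1584 with an offset of 50, 400 with median scaling, 1777 on the authors' values and 1625 on those values with the replicate block, and 371 to 953 when 1 array was left out. The fit of only the 2 groups gives no value between the doses. The causes of these shifts were not tested. Of the alternative values of the 270 named genes, 4734 kept their direction and call, 99 kept the direction and lost the call, 16 kept the direction and gained it, and 11 reversed, none of them called. With housekeeping scaling KCNMB2 became 0.021 and TNFRSF8 0.009. When 1 array was left out BBC3 ran from -0.056 to 0.1, GABARAP from -0.077 to 0.344, KCNMB2 from -0.239 to 0.019, KCNMB3 from -0.022 to 0.181, NFKB1 from -0.081 to 0.049, NQO1 from -0.04 to 0.178 and TNFRSF8 from -0.051 to 0.001. Of the list counts, 1580 stayed within 1.5 times and 220 did not.

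Deviations of the 25 nM and control samples with the same replicate number correlated by -0.007, 0.135 and 0.073. Those with different numbers correlated by -0.112 to 0.031. With 3 samples a group, these values cannot tell whether the numbers pair the samples. The replicate block on the authors' values gave 4573 called genes. The raw columns carry array numbers that the labels do not tie to the replicate numbers. Each of the authors' columns correlated by rank at 0.99974 to 0.99999 with a raw column of its own group. That match was not used to assign replicate numbers to the raw columns. Signal close to background limits the folds of low genes. This includes named genes for which no value without background correction is printed.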
